A study of Drosophila melanogaster with 36 samples.

Results

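The endoplasmic reticulum chaperones and stress sensors described here are 10 genes of the fly, out of 11981 measured in all. They are the stress sensors Ire1 and Atf6, the chaperones Hsc70-3 and Gp93, the protein disulfide isomerase family members Pdi, prtp and ERp60, the degradation components sip3 and Herp, and the translocation component Trp1. Each gene was taken from the probe set (a group of short probes on the array) that the platform annotation gives to that gene alone, and where a gene had several, the one with the highest mean of the 36 arrays was used. All 10 listed genes were found in this way, and no filter on low values was applied.

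Transcripts were measured in Kc167 cells, a Drosophila melanogaster line of embryonic origin, on 36 Affymetrix Drosophila Genome 2.0 arrays in 9 groups of 4. The labels give no transgene or mutation for the line, and all groups were grown in Schneider's medium with heat-inactivated serum and antibiotics. Untreated control cultures given fresh medium were collected at 0, 1, 8, 24 and 72 h. Cultures given fresh medium with methyl methanesulfonate (MMS), an agent that methylates DNA and other molecules, at 40 µg/mL were collected at 1, 8, 24 and 72 h. The experiment was run in quadruplicate according to the study's methods, but these do not say whether the replicates of a group came from separate cultures, so p-values measure only how far these arrays scatter, which may be partly technical.

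Proteins that enter the secretory pathway are threaded into the endoplasmic reticulum through a channel, folded there by chaperones and disulfide isomerases, and returned to the cytosol for destruction when folding fails. When unfolded protein builds up, membrane sensors of the reticulum start the unfolded protein response, a program that includes transcription of chaperone and degradation genes. In animals the sensors are Ire1, which splices the mRNA of the transcription factor Xbp1, the membrane-bound transcription factor Atf6, and the kinase PEK (the fly PERK), which slows translation and favours synthesis of the factor cryptocephal (crc, the fly ATF4). Ire1 and Atf6 are largely regulated as proteins, Ire1 acting by splicing and Atf6 after cleavage, and the arrays measured only the abundance of their mRNA.

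All values are log2 expression values, so that a difference of 1 is a 2-fold change, and a level of one gene cannot be set against that of another because probe sets differ in brightness. Differences are given as log2 change ± SE from a limma fit to all 36 arrays, and a gene was called higher or lower at a Benjamini-Hochberg adjusted p under 0.05 over the 11981 genes. The Pdi probe set had a mean of 3.36, at the 2.8th percentile of genes and close to the lowest value in the table (2.67), so little can be read from it in either direction. The other 9 members lay between percentiles 71.2 and 99.7. The probe sets of Hsc70-3 and Atf6 are of a type that can also recognise related transcripts.

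The 8 arrays of the 8 h groups stood apart. The probe set of the small-subunit ribosomal RNA read 11.61 to 12.36 there and 3.82 to 10.78 elsewhere. The 3′ probe sets of 3 control transcripts exceeded their 5′ probe sets by a mean of 1.42 to 1.67 there and 0.50 to 0.72 elsewhere, a measure of RNA integrity and labelling. Control and MMS arrays of 8 h both had this shift (means 1.55 and 1.63, exact two-sided permutation p = 0.143). A test of 4 against 4 arrays cannot show that they were alike. By transcript, eIF4a ranged from 1.78 to 2.01 in control and from 2.01 to 2.09 with MMS. GAPDH ranged from 0.91 to 0.99 and from 0.97 to 1.06, and actin from 1.58 to 2.0 and from 1.74 to 1.97. At 72 h the 3′ to 5′ difference was also higher with MMS (0.69 to 0.72) than in control (0.54 to 0.63), by 0.13 on average (exact permutation p = 0.0286, the smallest a test of 4 against 4 can give). The part of these shifts in the results below was not tested. Of 16 hemocyte (fly blood cell) markers, 13 lay above the median gene, against 2 of 8 neuron, 0 of 7 muscle, 4 of 8 germline and 0 of 7 fat body and gut markers. The mean level of the hemocyte list ranged from 8.21 to 9.47 over the 9 groups, and with MMS 2 of its genes were higher and 0 lower at 8 h, 3 higher and 7 lower at 24 h, and 3 higher and 5 lower at 72 h. Over all genes, 8.85% were higher and 11.5% lower at 8 h, 10.2% and 10.0% at 24 h, and 17.0% and 12.5% at 72 h.

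With MMS, Ire1, Atf6, prtp, Herp and Trp1 were called at 1 or more times, and none changed by 2-fold. The share of all genes called at 1 or more times was not counted, so members are set beside all genes at each time. At 1 h, 0 members were called, and over all genes the background was 0% higher and 0% lower by limma, with 684 genes at an unadjusted p under 0.05 and a smallest adjusted p of 0.336. At 8 h, Atf6, Herp and Trp1 were higher and prtp was lower, 3 and 1 of 10 beside 8.85% of all genes higher and 11.5% lower. At 24 h, 2 of 10 were higher (Ire1 and Trp1) and 0 lower, beside 10.2% and 10.0% of genes. At 72 h, the same 2 genes were higher and 0 lower, beside 17.0% and 12.5%. The median change of the members was -0.02, 0.21, -0.03 and -0.04 at 1, 8, 24 and 72 h, and that of all genes was -0.01, -0.02, -0.02 and -0.05.

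The scale of the arrays bears on these backgrounds. With the median of every array set to the same value (arrays centred), the median gene moved to -0.09 at 8 h, -0.08 at 24 h and -0.21 at 72 h. The share of called genes that were higher then fell from 43.5% to 29.2% at 8 h, from 50.4% to 39.7% at 24 h and from 57.7% to 21.9% at 72 h. In that setting Pdi was also called lower at 8 h and Herp at 24 h, and 3 further members were called lower at 72 h, namely Gp93 (-0.50), ERp60 (-0.32) and Herp (-0.39), while Ire1 (0.49) and Trp1 (0.72) were still called higher.

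**Figure D1:**
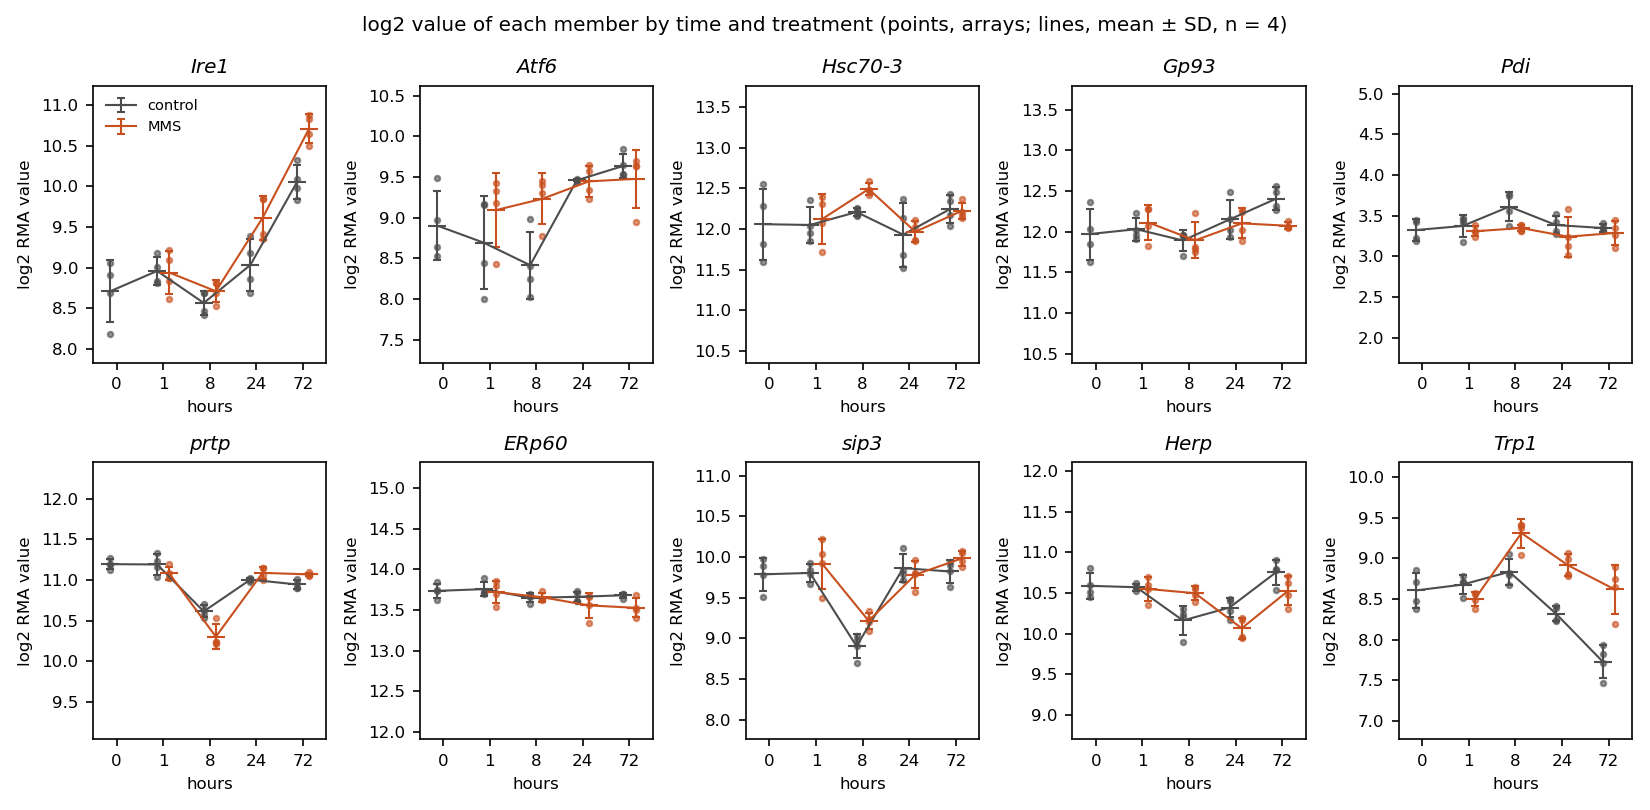
Log2 value of each of the 10 genes (vertical axis, the same span of log2 units in every panel) against hours in culture (horizontal axis, not to scale), with points for arrays and lines for the mean ± SD of 4 arrays in control (grey) and MMS-treated (orange) cultures. Ire1 climbed in both series to 10.06 and 10.71 at 72 h, and prtp and sip3 dipped at 8 h in both. Trp1 fell to 7.73 in control at 72 h, and with MMS it fell from 9.31 at 8 h to 8.62 at 72 h.

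The sensor Ire1, a kinase and ribonuclease, was higher with MMS at 24 and 72 h. At 24 h the 4 control arrays read 9.40, 9.18, 8.70 and 8.87, and the 4 MMS arrays 9.84, 9.84, 9.35 and 9.42. At 72 h the control arrays read 10.09, 10.32, 9.98 and 9.83, and the MMS arrays 10.64, 10.50, 10.87 and 10.83. The MMS arrays of 24 h lay towards the top with 1 control array among them, and at 72 h all MMS arrays lay above all control arrays. The changes were 0.58 ± 0.16 at 24 h (1.49-fold, adjusted p = 0.00815) and 0.66 ± 0.16 at 72 h (1.58-fold, adjusted p = 0.00209). At 1 and 8 h the differences were -0.02 ± 0.16 and 0.14 ± 0.16, and neither passed the test. The effect at 24 h did not pass a test against that at 8 h (difference 0.43 ± 0.23, adjusted p = 0.291).

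Ire1 was also the member that moved most in untreated cultures. Control arrays of 0 h read 8.69, 8.91, 9.06 and 8.19, all below those of 72 h, and the rise was 1.34 ± 0.16 (2.54-fold, adjusted p = 2.4e-08), the only 2-fold change of a member in any of the 10 comparisons. Without replicate 3 of control at 24 h, the Ire1 change at that time was 0.46 (adjusted p = 0.0535). With the replicate number as a block within the 24 h groups, it was 0.58 ± 0.08 (adjusted p = 2.44e-06). That setting was chosen after seeing that same-numbered arrays of these groups deviated together, so its p-value is not independent of the choice. A second, dimmer probe set of Ire1 read 5.85 ± 0.12 in control and 5.44 ± 0.26 with MMS at 8 h, 6.22 ± 0.25 and 6.43 ± 0.50 at 24 h, and 6.61 ± 0.40 and 7.19 ± 0.10 at 72 h (mean ± SD, n = 4). This probe set was not tested on its own. Its MMS mean was the lower at 8 h and the higher at 72 h, with a gap at 24 h smaller than the SD of the MMS group, and averaging both probe sets left 0.40 at 24 h (adjusted p = 0.101).

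Atf6, which is released from the membrane by cleavage to act as a transcription factor, was higher with MMS at 8 h alone among the 4 times. Its control arrays read 8.02, 8.25, 8.99 and 8.41 at 8 h, and its MMS arrays 8.77, 9.45, 9.40 and 9.31. The groups overlapped by 1 control and 1 MMS array. The change of 0.82 ± 0.24 (1.76-fold, adjusted p = 0.0115) was 0.69 without replicate 1 of control, where the adjusted p was 0.0675. At 24 h control and MMS stood at 9.46 ± 0.01 and 9.45 ± 0.19 (mean ± SD, n = 4), a difference of -0.01 ± 0.24. The effect of 24 h against that of 8 h was -0.83 ± 0.33 and did not pass (adjusted p = 0.136). It passed with the 4 groups of 8 and 24 h fitted alone (adjusted p = 0.0252) and without replicate 3 of control at 8 h (-1.02, adjusted p = 0.0463). The 1 h groups were widely spread, from 8.00 to 9.17 in control and from 8.43 to 9.43 with MMS, and their difference of 0.40 ± 0.24 did not pass. In control cultures Atf6 was 0.73 ± 0.24 higher at 72 h than at 0 h (adjusted p = 0.0132), with all 4 arrays above, and this call was lost without replicate 1 (adjusted p = 0.0509) or replicate 4 (0.0629) of the 0 h group.

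Hsc70-3, the fly BiP and the chaperone that binds unfolded chains and holds the sensors inactive, was not called in any comparison. At 8 h its control arrays read 12.16, 12.27, 12.25 and 12.17 and its MMS arrays 12.59, 12.48, 12.49 and 12.42. All MMS arrays of 8 h lay above all control arrays. The change was 0.28 ± 0.17 (adjusted p = 0.26) in the fit to all arrays, which takes 1 spread from all 9 groups, and it passed when the 8 h groups were fitted alone (adjusted p = 0.0184). The SD of Hsc70-3 was 0.05 and 0.07 in the 8 h groups and 0.44 in control at 0 h. At 24 h the groups averaged 11.93 in control and 11.97 with MMS (difference 0.04 ± 0.17), and at 72 h 12.25 and 12.22 (-0.02 ± 0.17).

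Gp93, the fly GRP94, a chaperone of secreted and membrane proteins, had group means of 11.89 in both groups at 8 h and the difference of 0.00 ± 0.13 did not pass the test. At 72 h its control arrays read 12.49, 12.56, 12.32 and 12.26 and its MMS arrays 12.06, 12.05, 12.06 and 12.14, so that every MMS array lay below every control array. The difference of -0.33 ± 0.13 did not pass (adjusted p = 0.0582), but it did with arrays centred (adjusted p = 0.00381), with dim genes left out (0.0467) and with the 72 h groups fitted alone (0.0181). In control, Gp93 was 0.44 ± 0.13 higher at 72 h than at 0 h (adjusted p = 0.00889), with overlapping arrays, and this call was lost with arrays centred (0.31, adjusted p = 0.0684), with those groups fitted alone (adjusted p = 0.0502) and without replicate 4 of the 0 h group (0.32, adjusted p = 0.0694).

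Of the disulfide isomerase family, enzymes that form and rearrange disulfide bonds, prtp was lower with MMS at 8 h. Prtp (pretaporter) is also known in the fly as a ligand of the engulfment receptor Draper. Control arrays of 8 h read 10.70, 10.58, 10.53 and 10.63, and MMS arrays 10.53, 10.21, 10.23 and 10.23, and all 4 of the latter lay below all 4 of the former, 1 of them narrowly. The change was -0.31 ± 0.07 (adjusted p = 0.00126). At 24 and 72 h the differences were 0.08 ± 0.07 and 0.12 ± 0.07, neither past the test, although all MMS arrays of 72 h (11.05 to 11.10) lay above the control arrays (10.90 to 11.01). The effect at 24 h was higher than that at 8 h by 0.39 ± 0.10 (adjusted p = 0.00905).

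The 8 h groups of prtp were low in both treatments. In control the mean was 11.19 at 0 h and 10.61 at 8 h, a fall with no overlap between arrays (-0.58 ± 0.07, adjusted p = 4.29e-08), and the arrays of 24 h read 10.98 to 11.03. ERp60, the fly counterpart of ERp57, was called in none of the 10 comparisons, and its 36 values lay between 13.34 and 13.89, with MMS differences from -0.15 ± 0.08 at 72 h to 0.01 ± 0.08 at 8 h. For Pdi, with its dim probe set, the MMS difference was -0.26 ± 0.10 at 8 h (adjusted p = 0.0565), -0.34 with arrays centred (adjusted p = 0.0158), and smaller in size at the other times. Its increase in control from 0 to 8 h (0.29 ± 0.10, adjusted p = 0.0236) did not pass with arrays centred (0.17, adjusted p = 0.193) with those groups fitted alone (adjusted p = 0.0983) or without any one of replicates 1 and 2 of 0 h and 1 and 4 of 8 h (adjusted p 0.0732 to 0.0917).

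The degradation components Herp and sip3 were both low at 8 h in control cultures, and with MMS every array of that time was higher than every control array. Herp is a membrane protein that helps assemble the degradation complex, and sip3 is the fly Hrd1, the ubiquitin ligase at its centre. Herp read 9.90, 10.25, 10.20 and 10.30 in control at 8 h and 10.39, 10.48, 10.57 and 10.55 with MMS. All 4 MMS arrays lay above the control arrays. The change was 0.33 ± 0.10 (1.26-fold, adjusted p = 0.0146), and 0.25 without replicate 1 of control (adjusted p = 0.109).

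At 24 h Herp read 10.41, 10.43, 10.18 and 10.28 in control and 10.20, 10.16, 9.96 and 9.95 with MMS, so that the lower values were now those of the MMS arrays, with 1 overlap. The difference was -0.26 ± 0.10 (adjusted p = 0.0716), and -0.31 with arrays centred (adjusted p = 0.0143). Same-numbered arrays deviated together at 24 h, and a fit with the replicate number as a block within the 24 h groups was chosen after seeing this. In it the change of Herp was -0.26 ± 0.08 (adjusted p = 0.0146), which adds it to the 2 members called. That fit called 3975 genes, against 2691 in the 24 h groups alone without the block and 2421 in the fit to all arrays. The effects at 24 h and 8 h differed by -0.59 ± 0.14 (adjusted p = 0.00621). At 72 h the difference was -0.23 ± 0.10 (adjusted p = 0.0875), and it did not differ between 72 and 24 h past the test (0.03 ± 0.14).

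For sip3 the control arrays of 8 h read 8.70, 8.91, 9.03 and 8.98 and the MMS arrays 9.33, 9.20, 9.09 and 9.23. Every MMS array was the higher, but the change of 0.31 ± 0.12 did not pass (adjusted p = 0.0602). It passed with the arrays quantile-normalised again (0.37, adjusted p = 0.0187), with dim genes left out (adjusted p = 0.0424) and with the 8 h groups fitted alone (adjusted p = 0.0302). In control cultures, from 0 to 8 h sip3 fell by 0.88 on the log2 scale (SE 0.12, adjusted p = 3.36e-07) and Herp by 0.43 (SE 0.10, adjusted p = 0.00109), with all arrays of 8 h below those of 0 h, and sip3 stood at 9.79 at 0 h, 8.90 at 8 h and 9.86 at 24 h. The MMS means of sip3 and Herp at 8 h (9.21 and 10.50) lay between the control means of 8 and 0 h.

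Trp1, the fly Sec62, a partner of the Sec61 channel through which proteins enter the reticulum, was higher with MMS at 8, 24 and 72 h, and no other member was called against control at more than 2 times. At 8 h its control arrays read 8.67, 8.79, 9.05 and 8.82 and its MMS arrays 9.05, 9.38, 9.42 and 9.41. At 24 h they read 8.41, 8.39, 8.25 and 8.24 in control and 8.995, 9.06, 8.79 and 8.81 with MMS. The 8 h groups overlapped by less than 0.01 between a single pair of arrays, and the 24 h groups did not overlap.

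At 72 h the control arrays of Trp1 read 7.47, 7.71, 7.93 and 7.82 and the MMS arrays 8.65, 8.19, 8.89 and 8.75, without overlap. The changes were 0.48 ± 0.12 (1.39-fold, adjusted p = 0.00444) at 8 h, 0.59 ± 0.12 (1.51-fold, adjusted p = 0.000343) at 24 h and 0.89 ± 0.12 (1.85-fold, adjusted p = 5.91e-07) at 72 h. Successive effects did not differ past the test (0.12 ± 0.17 from 8 to 24 h and 0.29 ± 0.17 from 24 to 72 h). The difference of 72 h accompanied a fall in control cultures, in which Trp1 was 0.87 lower than at 0 h (SE 0.12, adjusted p = 4.02e-07) with all arrays below. The mean with MMS also came down, from 9.31 at 8 h to 8.91 at 24 h and 8.62 at 72 h. That last mean was near that of control at 0 h (8.61). No member was called at 1 h, where Trp1 differed by -0.18 ± 0.12.

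**Figure D2:**
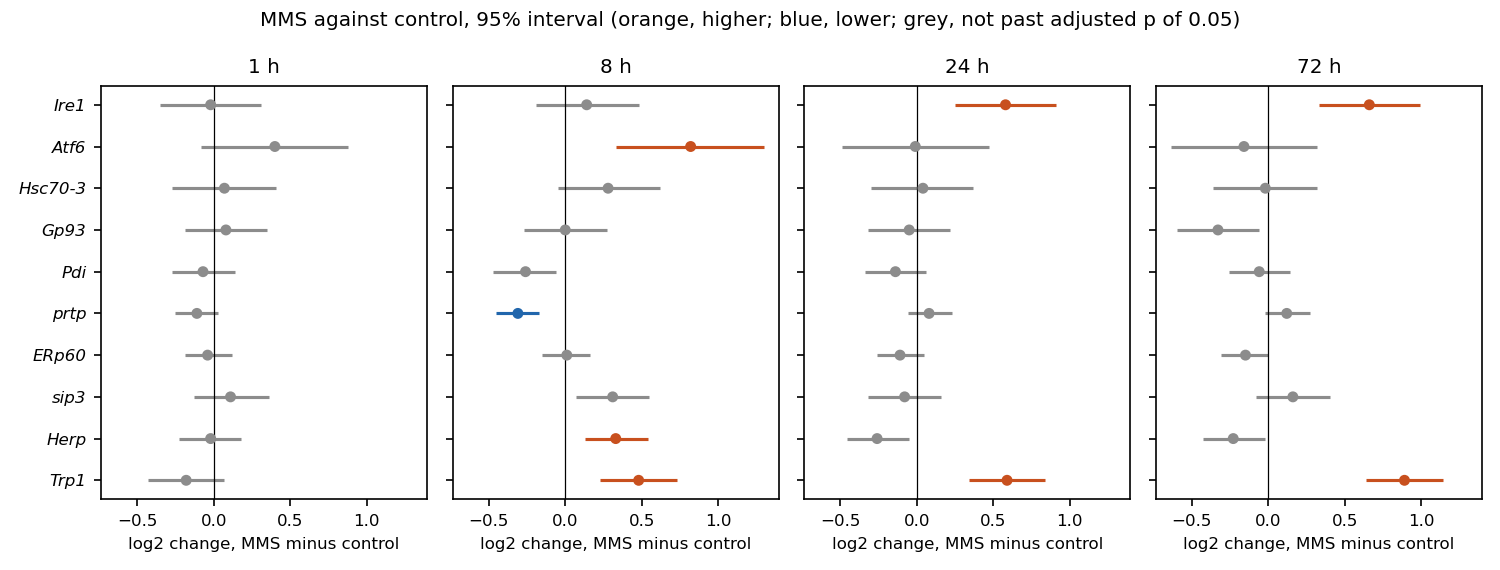
Log2 change, MMS minus control, of each gene at 1, 8, 24 and 72 h with its 95% confidence interval from the fit to 36 arrays (n = 4 per group). Orange points passed an adjusted p of 0.05 as higher and blue points as lower, and the 8 calls belong to Ire1, Atf6, prtp, Herp and Trp1.

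Across time, the comparison of effects asked whether MMS acted differently at successive harvests. From 8 to 24 h, the effect became higher for prtp and lower for Herp, 1 and 1 of 10 beside 4.96% and 3.02% of all genes. From 24 to 72 h, 0 members were called beside 9.13% and 4.53%. Of the genes called in each setting, which are not the same genes, 44.3% were higher with arrays centred and 66.8% without. These comparisons share the groups of the middle time with each other and with the single-time comparisons.

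Untreated cultures changed too. From 0 to 1 h, 0 of 10 members moved (0.200% of genes higher and 0.0668% lower). From 0 to 8 h, Pdi was higher and prtp, sip3 and Herp were lower (1 and 3 of 10, beside 16.8% and 16.4%), and these are the arrays with the shifted RNA controls. With arrays centred, 0 members were higher and 5 lower in this comparison, since Pdi was no longer called and Atf6 (-0.61, adjusted p = 0.0331) and ERp60 (-0.21, adjusted p = 0.0307) were added. From 0 to 24 h, 0 members were called (4.82% and 10.8%), and 3 were lower with arrays centred (prtp, Herp and Trp1). From 0 to 72 h, Ire1, Atf6 and Gp93 were higher and prtp (-0.25 ± 0.07, adjusted p = 0.00416) and Trp1 lower (3 and 2 of 10, beside 16.7% and 19.8%). All 4 comparisons share the 0 h arrays. With arrays centred, the higher share of called genes moved from 50.6% to 28.6% at 8 h, from 30.8% to 20.7% at 24 h and from 45.8% to 30.6% at 72 h.

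Arrays of the 2 treatments did not overlap for 4 members at 8 h (Hsc70-3, prtp, sip3 and Herp), 1 at 24 h (Trp1) and 4 at 72 h (Ire1, Gp93, prtp and Trp1). Over all genes the share without overlap was 24.5%, 24.2% and 28.2% at these times and 3.66% at 1 h, where 0 members lacked overlap.

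The rest of the pathway was read from lists of genes with the members left out. The counts with MMS stand beside 8.85% of all genes higher and 11.5% lower at 8 h, 10.2% and 10.0% at 24 h, and 17.0% and 12.5% at 72 h. With arrays centred, 839 of all 11981 genes were higher and 2038 lower at 8 h, 1058 and 1604 at 24 h, and 1407 and 5004 at 72 h. Counts near these shares say little about a list. In the list of sensors and signalling, 3 of 4 genes were higher at 8 h, 4 of 4 at 24 h and 3 of 4 at 72 h, and 0 were lower. PEK, the kinase sensor, was 0.91 ± 0.19 higher at 8 h (adjusted p = 0.000689), 0.81 ± 0.19 at 24 h (adjusted p = 0.00176) and 0.53 ± 0.19 at 72 h (adjusted p = 0.0355). Its downstream factor crc was higher by 0.46 ± 0.08, 0.40 ± 0.08 and 0.30 ± 0.08 at the same times (adjusted p = 3.76e-05, 0.000139 and 0.00312). PPP1R15, which directs the phosphatase that reverses the action of PEK, was higher by 0.64 ± 0.09, 0.54 ± 0.09 and 0.25 ± 0.09, and the membrane protein BI-1 by 0.55 ± 0.09 at 24 h. At 1 h PEK and crc did not pass. With arrays centred, 3, 4 and 0 of the 4 genes were called at 8, 24 and 72 h, so the calls of 72 h in this list depend on the scale. In control, all 4 were higher at 72 h than at 0 h, beside 16.7% of all genes, PEK by 1.02 ± 0.19. Xbp1, the target of Ire1, was not analysed here.

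Among 9 other chaperones and cofactors, 4 were higher and 0 lower at 8 h, 2 and 0 at 24 h, and 1 and 4 at 72 h. At 8 h the highest were shv, a J-domain partner of BiP (0.42 ± 0.07, adjusted p = 1.61e-05), the secreted stress factor Manf (0.64 ± 0.13, adjusted p = 0.000343) and the lectin chaperone Cnx99A (0.68 ± 0.14, adjusted p = 0.00042), in order of adjusted p. At 72 h shv was 0.85 lower (SE 0.07, adjusted p = 2.79e-12), P58IPK, another J-domain partner, was 0.53 lower (SE 0.10, adjusted p = 8.39e-05) and the large chaperone Grp170 0.77 lower (SE 0.17, adjusted p = 0.000609). The medians of the list were 0.24 at 8 h, 0.14 at 24 h and -0.27 at 72 h. The test of effects between 24 and 72 h called 4 of the 9 lower, beside 4.53% of all genes, and shv had the largest of these differences (1.99-fold lower, adjusted p = 1.12e-09). With arrays centred, 4 were higher at 8 h, 0 at 24 h and 0 at 72 h, and 6 were lower at 72 h. Sil1, an exchange factor of BiP, was 0.24 ± 0.08 higher at 24 h (adjusted p = 0.0225).

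Among 5 other genes of oxidative folding, 0 were called at 8 h, 2 were lower at 24 h, and 1 was higher and 2 lower at 72 h. With arrays centred, 2 were lower at 8 h and at 24 h, and 1 was higher and 4 lower at 72 h. CG9302 was 0.34 lower at 24 h (SE 0.10) and 0.79 lower at 72 h (SE 0.10, adjusted p = 4.55e-08), Ero1L, the oxidase that recharges the isomerases, 0.40 lower at 24 h (SE 0.13, adjusted p = 0.0225), and CaBP1, an isomerase, 0.41 lower at 72 h (SE 0.08, adjusted p = 7.14e-05). ERp44, which retains proteins in the early secretory pathway, was 0.39 ± 0.08 higher at 72 h (adjusted p = 0.000337).

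Of 9 other genes listed under degradation, 2 were higher and 0 lower at 8 h and at 24 h, and 2 higher and 1 lower at 72 h. The gene called at all 3 times was Ubc6 (0.78 ± 0.11, 0.83 ± 0.11 and 0.67 ± 0.11), and fly Ubc6 is the counterpart of yeast Rad6, a ubiquitin-conjugating enzyme of DNA damage tolerance, and not of the yeast degradation enzyme that has the same name. Without it, 1 of 8 was higher at each time, namely Der-2, a derlin of the exit channel, at 8 h (0.25 ± 0.08, adjusted p = 0.0326), Edem2, which recognises sugars of misfolded proteins, at 24 h (0.72 ± 0.20, adjusted p = 0.00783) and TER94, the ATPase that extracts substrates, at 72 h (0.31 ± 0.10, adjusted p = 0.017). Der-1 was 0.35 lower at 72 h (SE 0.14, adjusted p = 0.049). With arrays centred and Ubc6 kept in the list, 1 of the 9 was higher at 8 h, 2 at 24 h and 1 at 72 h, and 2 were lower at 72 h. The list without Ubc6 was not counted in that setting, so these counts do not say whether Der-2, Edem2 and TER94 kept their calls.

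The translocation list gave the neighbours of Trp1. Of 16 other genes, 1 was higher and 4 lower at 8 h, 2 and 3 at 24 h, and 1 and 5 at 72 h. Sec61alpha, the channel itself, was lower by 0.26, 0.43 and 0.56 on the log2 scale (SE 0.08 each, adjusted p = 0.018, 9.11e-05 and 1.04e-06), the opposite direction to Trp1 at each time. SrpRalpha, the docking receptor of the signal recognition particle, was 0.50 lower at 8 h (SE 0.10, adjusted p = 0.000505), and twr, a signal peptidase gene, 0.68 and 0.85 lower at 24 and 72 h. Srp9, of the signal recognition particle, was 0.71 ± 0.16 higher at 24 h (adjusted p = 0.00095) and Spase22-23, another signal peptidase gene, 0.79 ± 0.16 higher at 72 h (adjusted p = 0.000258). The probe set of Spase22-23 was dim, with means of 4.20 in control and 3.89 with MMS at 1 h, and 4.73 and 5.13 at 8 h. In control cultures 13 of these 16 genes were lower at 72 h than at 0 h and 0 higher, beside 19.8% and 16.7% of all genes, and Trp1 was lower as well. With arrays centred, 0 of the 16 were higher and 6 lower with MMS at 8 h, and 1 was higher and 10 lower at 72 h.

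**Figure D3:**
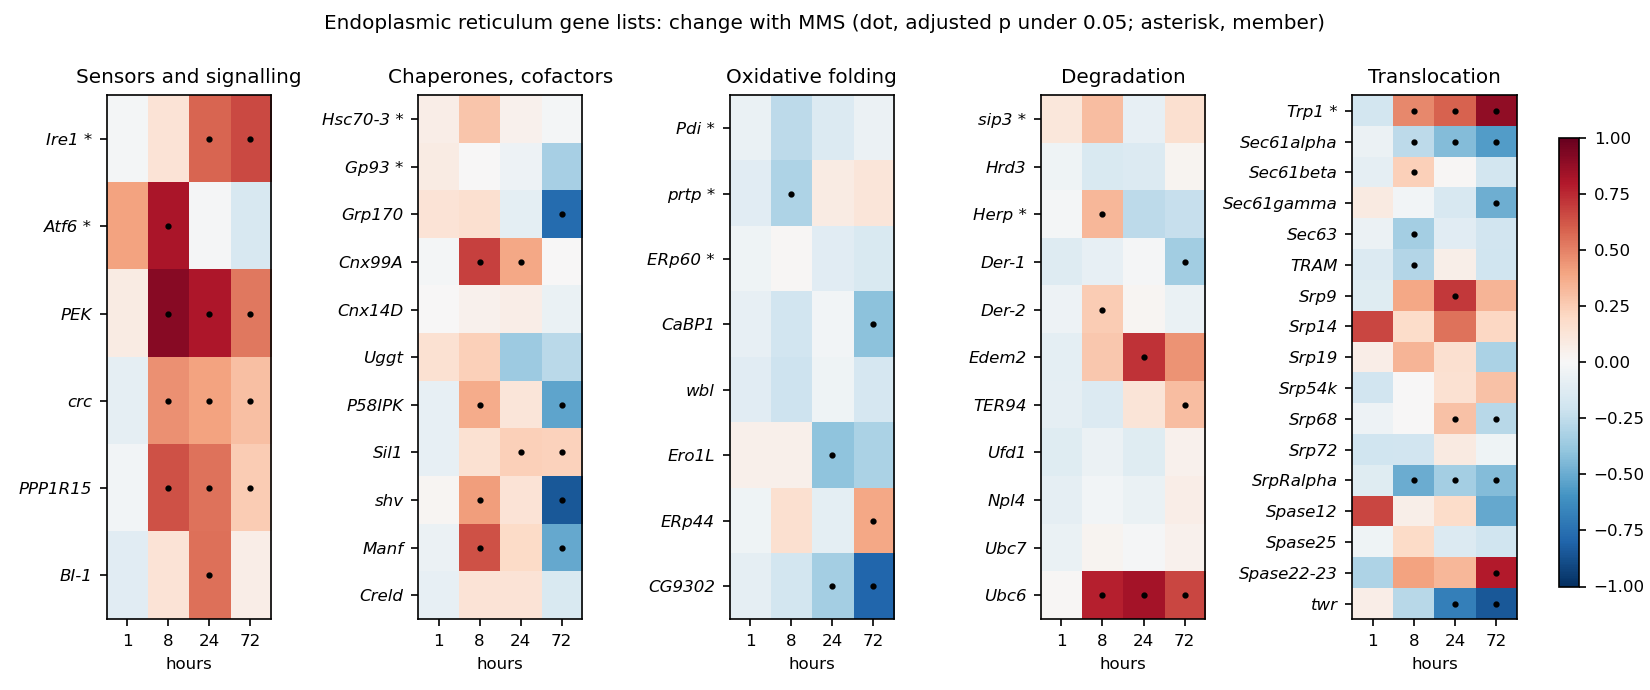
Log2 change, MMS minus control, of the measured genes of the 5 endoplasmic reticulum lists at 1, 8, 24 and 72 h, with colour for the size of the change from -1 (blue) to 1 (red), a dot for an adjusted p under 0.05 and an asterisk for the 10 members. In the sensor list, PEK, crc and PPP1R15 are red at 8 and 24 h, while Atf6 is not at 24 h (-0.01). Ire1 and BI-1 are faint at 8 h (0.14 each). Among chaperones shv and Grp170 turn blue at 72 h (-0.85 and -0.77).

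Members varied together within groups to different degrees. With group means removed, the values of Hsc70-3 correlated with those of Gp93 at r = 0.86 and with those of Ire1 at r = 0.84 over 36 arrays. These were the highest r of any pair of members. Hsc70-3 with sip3 gave 0.79, with Trp1 0.33 and with prtp -0.05, and the lowest r was -0.35, for Atf6 with prtp. No within-group r of other genes was computed, so a background for these values is lacking. Over all 36 arrays with group means kept, the r of Hsc70-3 with Gp93 was 0.42 and that with Ire1 0.21. Without the 8 arrays of 8 h, these values were 0.79 and 0.51. These are descriptions across arrays that share RNA, labelling and normalisation. The 5 genes whose log2 values followed Hsc70-3 most closely over the 36 arrays were Capr (Pearson r = 0.884), Tpst (0.870), Kat60 (0.867), tho2 (0.867) and disp (0.866), and without the 8 arrays of 8 h their r was 0.861 to 0.893.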

How the data were processed

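The log2 values deposited by the authors, 1 for every probe set on every array, were made with RMA according to the submitters' processing notes (version not given in the sources used here), which corrects background, equalises the distributions of the arrays by quantiles and summarises probes. A change of total RNA per cell therefore cannot be seen, and each difference is relative to other genes. The table held 18952 probe sets with values from 2.67 to 14.74 and array medians from 4.47 to 4.66. Arrays have no sequencing depth, and their number limits the precision.

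Of the probe sets, 13646 carried a single gene in the platform annotation, 402 several and 4721 none, and 183 were controls. Symbols came from a table of genes for assembly Release 6 plus ISO1 MT, used for names only. The brightest probe set stood for each of the 1094 genes that had several. Group means were fitted with limma 3.58.1 in R 4.3.3 (27 residual and 5.37 prior degrees of freedom, two-sided, no covariates), in place of the permutation method that the study's methods name. The fit was also run on simulated data with independent arrays. Those data had neither the 8 h shift nor the shared deviations at 24 h, so that run does not bear on them.

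The members, lists and comparisons were chosen with earlier results of these data known. All members are named, and from each pathway list up to 3 genes per MMS comparison with the smallest adjusted p under 0.05, with PEK and crc throughout. Listed genes without a probe set of their own in the annotation (Xbp1, Calr, SsRbeta, Srp54, SrpRbeta and Edem1) were not analysed here. Alternatives were median centring, renewed quantile normalisation, fits to the compared groups alone, dim genes (mean under 5) left out, averaged probe sets, the replicate number as a block and each array left out. As a check of pairing, the correlation of same-numbered deviations from group means was 0.356 to 0.529 at 24 h (mean 0.457), and averaged -0.176 at 1 h, 0.159 at 8 h (lowest -0.031) and -0.15 at 72 h. A block within the 24 h groups was therefore added to the block over all arrays, both as alternatives. The main fit did not pair arrays at any time. No source states what the replicate numbers share.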

Additional observations from a re-analysis of the deposited data

Results flagged for a closer look

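In 9 of 90 groups of 4 arrays (each member in each group), 1 array lay far from the other 3 by Dixon's criterion, which chance alone meets in about 1 of 20 groups. All members were read from the same arrays and some varied together within groups, so the 90 tests are not independent. Their count cannot be judged against that rate. Replicate 1 of the MMS group at 8 h accounted for 4 of the 9, with Gp93 at 12.22 (the others 11.76 to 11.81), prtp at 10.53 (10.21 to 10.23), ERp60 at 13.74 (13.62 to 13.63) and Trp1 at 9.05 (9.38 to 9.42). The remaining arrays were Atf6 at 8.95 (9.63 to 9.70) in replicate 2 of MMS at 72 h, Gp93 at 11.70 (11.94 to 11.96) in replicate 3 of control at 8 h, Gp93 at 12.13 (12.05 to 12.06) in replicate 4 of MMS at 72 h, prtp at 11.10 (11.05 to 11.06) in replicate 3 of MMS at 72 h and ERp60 at 13.89 (13.70 to 13.73) in replicate 3 of control at 1 h.

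The effect of MMS differed between 8 and 24 h for 2 members by the interaction test of limma. It was higher at 24 h by 0.39 for prtp (adjusted p = 0.00905) and lower by a log2 difference of -0.59 for Herp (adjusted p = 0.00621).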

How the results depend on the processing

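No call of a member changed direction under any of the alternatives that were run. Of 670 member values under other settings, 642 kept their side of the threshold, 5 calls were lost and 23 gained. Another 21 values that were never past it changed sign but count as kept. With 1 array left out, 941 of 960 values kept their side, 10 calls were lost and 9 gained, and 67 uncalled values changed sign. Values called in neither setting count as kept, so these totals say little about how firmly the calls hold. With arrays centred, 6411 genes in place of 3531 and 5 members in place of 2 were called for MMS at 72 h, and 3 members in place of 0 for control at 24 h against 0 h. In the last comparison 2 members were called with dim genes left out, 1 without the 8 h arrays (a setting chosen after seeing the data), and 1204 genes in place of 1877 with only its groups fitted. Averaging probe sets left 1 member at 24 h of MMS. For control at 1 h against 0 h, 2 genes in place of 32 were called with only its groups fitted. With the replicate number as a block over all arrays, 4 members were called at 8 h, 2 at 24 h and 3 at 72 h, where Gp93 was added (-0.33, adjusted p = 0.043). The block within the 24 h groups alone (chosen after seeing the data) gave 3975 genes, against 2691 for those groups without it and 2421 for all arrays without it.

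Leaving out 1 array at a time gave 2 to 6 members for MMS at 8 h, the fewest without replicate 1 of control at 8 h, and 6 without its replicate 3, where Pdi (-0.34) and sip3 (0.35) were added. It gave 3 to 5 members for control at 72 h against 0 h (3 without replicate 4 of 0 h), 0 to 1 for control at 24 h (1 without replicate 2 or 3 of 0 h) and 13 to 34 genes for control at 1 h. The number of arrays, 4 per group, limits all calls, and the Pdi probe set is too dim to bound its change.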
